A study of Mus musculus with 9 samples.

Results

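The genes described here encode 10 transcription factors of the AP-1 and BATF family: Fos, Fosb, Fosl2, Jun, Junb, Jund, Atf3, Batf, Batf2 and Batf3. They were taken by name, as every probe set whose single gene symbol in the platform annotation is one of the 10. This gave 10 of 18193 named genes, with 13 of the 45037 probe sets that are not controls. Levels were measured on 9 Affymetrix mouse arrays, 1 per sample, in bone marrow derived dendritic cells of the 129/SvEv strain, grown from bone marrow with the growth factor GM-CSF for 9 to 12 days. The 3 groups of 3 arrays were wild-type cells with no stimulation (WT media), wild-type cells given purified tumor-cell DNA with a lipid transfection reagent for 7 h (WT tumor DNA), and STING knockout cells given the same kind of DNA (STING tumor DNA). STING passes on the alarm when DNA is found in the cytosol. Neither unstimulated knockout cells nor cells with lipid reagent only were analysed here, so DNA, reagent and the genotype by itself cannot be told apart. No label ties the samples of a group to different mice or cultures, and the p-values therefore cover the spread among these arrays, which could be technical.

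AP-1 is a pair of leucine zipper proteins that binds DNA, most often a FOS protein joined to a JUN protein. JUN proteins can also pair with each other, FOS proteins cannot, and the choice of partner sets which genes are bound and how strongly they are activated. Many of these genes are immediate early genes, switched on quickly and briefly by MAP kinase signals. ATF3 is a stress-induced member that limits cytokine transcription in macrophages. The BATF proteins pair with JUN proteins, and BATF and BATF3, which hold little more than the DNA-binding region and the zipper, bind DNA together with the interferon regulatory factors IRF4 and IRF8. BATF3 is needed for the development of the cross-presenting type of dendritic cell.

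The deposited values are signal units of the MAS5 algorithm on a linear scale, and all differences below are differences of log2(signal + 16). Sting1, the targeted gene, read 246 to 336 units in the knockout arrays and 646 to 2258 in the wild-type arrays. It is not known here whether its probe set lies in the altered part of the gene. In each group the titles number the samples II and III only, and the sample without a number is called number 1 here. These number 1 arrays stood apart in a spiked hybridisation control (BioB), at 406 to 552 units against 115 to 189 on the others, and each group holds 1 of them. Markers of dendritic cells and macrophages were present on every array (12 of 12 passed the filter on low signals), with Itgax (CD11c) at 4108 to 6174 units. Their summed level was 134071 to 150845 units in WT media, 161094 to 191625 in WT tumor DNA, above all other arrays, and 119125 to 145984 in STING tumor DNA. Single markers in that list varied more, Cd86 from 1822 to 19977 units and Fcgr1 from 1624 to 16709. Of the T and NK cell markers, 1 of 7 on the array passed, and their summed level was 120 to 166 units in WT media, 147 to 204 in WT tumor DNA and 134 to 172 in STING tumor DNA. Neutrophil markers were present (7 of 7 passed), with sums of 17130 to 71159, 24891 to 91228 and 34994 to 41801 units in the same order. For B cell markers (4 of 5 passed) the sums were 359 to 1353, 414 to 2414 and 206 to 424 units, and for mast cell and basophil markers (5 of 6 passed) 378 to 1079, 554 to 1442 and 247 to 275. Fibroblast markers (4 of 5 passed) summed to 568 to 5311, 679 to 4503 and 907 to 6173 units, and erythroid markers (1 of 4 passed) to 78.1 to 127, 123 to 197 and 78.9 to 214. The part of these cells in the results below was not tested. In such mixed cultures, fewer cells of a type and less RNA per cell cannot be told apart.

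In wild-type cells given tumor DNA, Batf2, Atf3, Junb and Jun rose and Batf and Batf3 fell. Thus 6 of the 10 genes were called at a limma adjusted p below 0.05, where 33.6% of all 12586 genes tested were called, 9.94% as higher and 23.6% as lower. The Jun call was near the threshold, and a second Jun probe set differed by -0.02. In STING knockout cells given DNA, compared with wild-type cells given DNA, Batf2 and Atf3 were lower and Batf, Batf3 and Fos were higher. That is 5 of 10, where 31.5% of genes were called, 21.8% as higher and 9.73% as lower. Compared with wild-type cells in media, the stimulated knockout cells differed in 1 member, Fos, where 0.429% of genes were called. The median difference of the 10 genes was 0.08 for DNA in wild type, 0.22 for knockout under DNA and 0.27 for stimulated knockout against media, and that of all genes was -0.20, 0.20 and -0.01. The groups did not overlap in 6, 6 and 2 of the 10 genes, against 46.4%, 46.0% and 13.8% of all genes. All 13 probe sets passed the filter on low signals, which asks for a mean log2 value above 5.67 over the 9 arrays. Fosb passed only through the STING tumor DNA arrays, with a mean of 5.98 there, 5.62 in WT media and 5.65 in WT tumor DNA. The first and second comparisons share the WT tumor DNA arrays, so their opposite signs are not independent of each other.

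**Figure D1:**
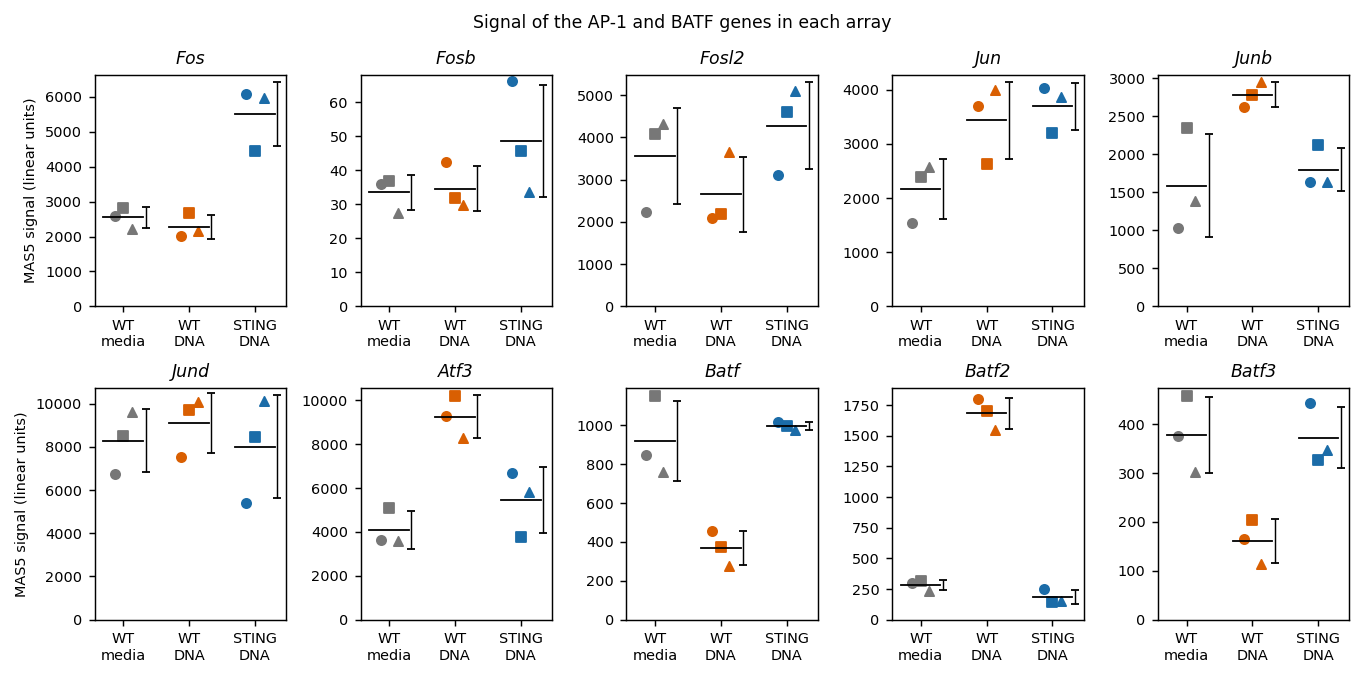
MAS5 signal (linear units, y axis from 0) of the 10 genes in each array, by group on the x axis, with the probe set of the highest mean for each gene. Circles, squares and triangles are replicate numbers 1, 2 and 3, horizontal lines are group means and error bars are 1 SD of 3 arrays. In Batf2 the 3 WT tumor DNA arrays stand at 1550 to 1796 units above 146 to 311 in the other 6, and in Fos the 3 STING tumor DNA arrays stand at 4461 to 6087 above 2025 to 2824.

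**Figure D2:**
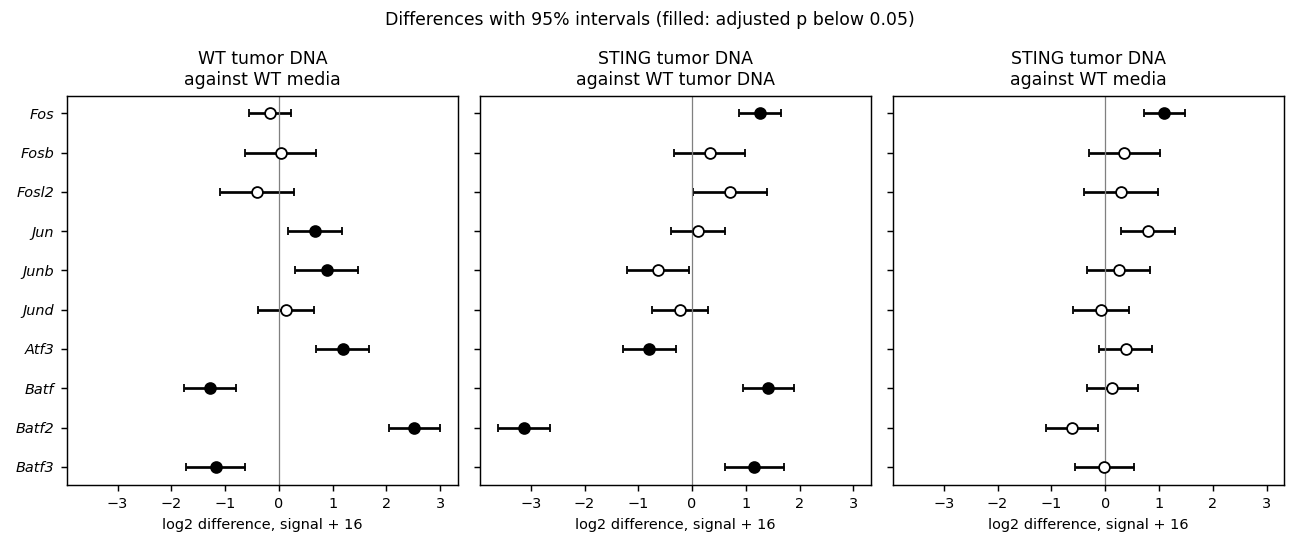
Log2 difference (signal + 16, x axis) of each gene in the 3 comparisons, with 95% intervals from the limma fit of 9 arrays. Filled points passed the adjusted threshold, which 6, 5 and 1 of the 10 genes did from left to right.

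Batf2, the BATF protein that interferon induces in macrophages and dendritic cells, had the largest differences of the 10 with DNA in wild type and in the knockout under DNA. It read 295, 311 and 237 units in WT media, 1796, 1701 and 1550 in WT tumor DNA, and 247, 146 and 154 in STING tumor DNA. The WT tumor DNA arrays lay far above all others, which overlapped among themselves. Batf2 rose with DNA in wild type by 2.52 ± 0.22 (SE, n = 3 per group, limma adjusted p = 0.00019), or 5.74-fold. Ranked by p it was number 28 of 12586 genes. Under DNA the knockout was lower, with a difference of -3.13 ± 0.22 (limma adjusted p = 3.6e-05), or 8.76-fold, number 19 by p. Within replicate numbers 1, 2 and 3 the rise was 2.54, 2.39 and 2.63, and the knockout differences were -2.78, -3.40 and -3.21. In stimulated knockout against media the 3 differences were -0.24, -1.01 and -0.58, and the fit gave -0.61 with a 95% interval of -1.09 to -0.13 (limma adjusted p = 0.49). No promoter window was matched for Batf2.

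Batf and Batf3 moved the other way from Batf2. Batf, needed for class switching in B cells and for Th17 cells, read 845, 1149 and 762 units in WT media, 456, 373 and 277 in WT tumor DNA, and 1014, 994 and 974 in STING tumor DNA. Every WT tumor DNA value lay below the other 6. The knockout arrays were the tightest of the 3 groups, the highest 1.04 times the lowest. Batf fell by 1.29 ± 0.21 (SE, n = 3 per group, limma adjusted p = 0.0022) with DNA in wild type and was higher by 1.42 ± 0.21 (limma adjusted p = 0.0012) in the knockout under DNA. The knockout under DNA and wild type in media differed by 0.13, with a 95% interval of -0.35 to 0.61.

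Batf3 read 375, 457 and 302 units in WT media, 164, 204 and 114 in WT tumor DNA, and 444, 326 and 347 in STING tumor DNA. The WT tumor DNA arrays again lay below all others, and the other groups overlapped. It fell by 1.17 ± 0.25 (SE, n = 3 per group, limma adjusted p = 0.0061) with DNA and was higher by 1.16 ± 0.25 (limma adjusted p = 0.0061) in the knockout under DNA. Against media the knockout differed by -0.01 (95% interval -0.56 to 0.53). Without the arrays numbered 3 both Batf3 calls ended, at adjusted p = 0.052 and 0.069. Centring each array on the median of the genes tested moved the falls of Batf and Batf3 in wild type to -0.85 and -0.74 (limma adjusted p = 0.019 and 0.042) and the Batf3 difference in the knockout to 0.76 (adjusted p = 0.040).

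The letters just before the start of the genes that fell are shown here, from RefSeq (GRCm38.p6), with motif matches in capitals. Both are on the plus strand, Batf at chr12:85686470-85686719 and Batf3 at chr1:191098164-191098413.
Batf: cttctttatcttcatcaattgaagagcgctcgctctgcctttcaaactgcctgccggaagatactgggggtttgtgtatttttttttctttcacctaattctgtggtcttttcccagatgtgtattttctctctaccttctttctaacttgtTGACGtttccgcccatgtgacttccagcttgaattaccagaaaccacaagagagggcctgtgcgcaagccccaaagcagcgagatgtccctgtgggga
Batf3: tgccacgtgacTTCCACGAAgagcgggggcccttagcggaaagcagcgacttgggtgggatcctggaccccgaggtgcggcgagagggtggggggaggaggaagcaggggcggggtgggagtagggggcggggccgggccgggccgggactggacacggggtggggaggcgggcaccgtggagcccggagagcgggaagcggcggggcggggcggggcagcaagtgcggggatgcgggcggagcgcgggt
The capitals in Batf are TGACG, the core of the cyclic AMP response element (CRE), at -98 to -94 from the start. Those in Batf3 are a match to TTCNNNGAA, the form of a STAT site, at -239 to -231. TTCNNNGAA occurred in 8.30% of 32841 RefSeq windows of 300 bases (250 before and 50 after the start) and TGACG, searched after the windows had been read, in 20.8%.

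Atf3, the stress-induced member that restrains cytokine genes, was high in all groups and higher still with DNA in wild type. It read 3609, 5109 and 3606 units in WT media, 9271, 10210 and 8288 in WT tumor DNA, and 6701, 3789 and 5832 in STING tumor DNA. WT tumor DNA lay above every other array, and the knockout arrays overlapped those of media. Atf3 rose by 1.18 ± 0.22 (SE, n = 3 per group, limma adjusted p = 0.0035), a call lost without the arrays numbered 3 (0.057). The knockout under DNA was lower by a difference of -0.80 ± 0.22 (limma adjusted p = 0.020). That call ended with quantile normalization (0.072), with median centring (0.051), without WT tumor DNA array 1 (0.055) or 2 (0.060), without STING tumor DNA array 2 (0.061), and without the arrays numbered 2 (-0.49, adjusted p = 0.082) or 3 (0.096). Centred on the median of the genes tested it was -1.20 (adjusted p = 0.0043). Against media the stimulated knockout differed by 0.38 (95% interval -0.11 to 0.88), at 0.89 and 0.69 in numbers 1 and 3 and -0.43 in number 2.

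The JUN genes encode the partners that FOS and BATF proteins need. Jun read 1542, 2390 and 2567 units in WT media, 3695, 2635 and 3989 in WT tumor DNA, and 4025, 3204 and 3859 in STING tumor DNA. All 6 DNA-treated arrays lay above the 3 media arrays, by little in the case of WT tumor DNA array 2. It rose with DNA in wild type by 0.67 ± 0.22 (SE, n = 3 per group, limma adjusted p = 0.042). A second Jun probe set read 598, 758 and 892 units in media, 804, 589 and 819 in WT tumor DNA and 1120, 867 and 1342 in STING tumor DNA. Its difference with DNA in wild type was -0.02 ± 0.23 (limma adjusted p = 0.96 over all probe sets, of which 27.0% were called).

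The rise of Jun was near the threshold. Its call ended in 6 of 11 other settings, with the adjusted p highest, at 0.28, for the mean of the probe sets (0.33). It ended without WT media array 1 (0.45, adjusted p = 0.13) or 2 (0.057), without WT tumor DNA array 1 (0.12) or 3 (0.13), without STING tumor DNA array 2 (0.052) or 3 (0.063), and without the arrays numbered 1 (0.39, adjusted p = 0.24) or 3 (0.16). Centred on the median of the genes tested, the Jun difference was 1.11 (adjusted p = 0.0097). In the knockout under DNA, against wild type under DNA, Jun differed by 0.12 (95% interval -0.38 to 0.62), and -0.28 with that centring. The second probe set, whose groups did not overlap, differed by 0.57 ± 0.23 (limma adjusted p = 0.092 over all probe sets, of which 25.1% were called). Against media the stimulated knockout differed by 0.79 ± 0.22 in the first probe set (limma adjusted p = 0.31) and 0.55 ± 0.23 in the second (limma adjusted p = 0.63 over all probe sets, of which 0.381% were called).

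Junb, whose protein activates transcription more weakly than JUN, read 1032, 2346 and 1387 units in WT media, 2619, 2786 and 2949 in WT tumor DNA, and 1639, 2123 and 1635 in STING tumor DNA. The WT tumor DNA arrays lay above all others and close to each other, whereas the media arrays spread 2.27-fold. Junb rose with DNA by 0.89 ± 0.26 (SE, n = 3 per group, limma adjusted p = 0.026), at 1.33 and 1.08 in numbers 1 and 3 and 0.25 in number 2. That call ended without WT media array 1 (0.079) or 3 (0.074), without WT tumor DNA array 1 (0.055), 2 (0.057) or 3 (0.072), and without the arrays numbered 1 (0.11) or 3 (0.21). In the knockout under DNA Junb differed by -0.64 ± 0.26 (limma adjusted p = 0.092). With the replicate number as a block the adjusted p was 0.027, and it was 0.015 centred on the median of the genes tested (-1.03) and 0.021 with only the groups compared. It was also below the threshold without WT media array 1 (0.045) or 2 (0.024).

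Jund, the JUN protein that is present in resting cells, read 6722, 8518 and 9622 units in WT media, 7512, 9722 and 10050 in WT tumor DNA, and 5416, 8458 and 10117 in STING tumor DNA. The groups overlapped throughout, and array 1 was the lowest in each. The differences were 0.14 (95% interval -0.38 to 0.66) with DNA in wild type, -0.22 (-0.74 to 0.30) in the knockout under DNA, and -0.08 (-0.60 to 0.44) for stimulated knockout against media. None was called (limma adjusted p = 0.69, 0.51 and 0.98), and the first turned to -0.09 with quantile normalization. The second Jund probe set read 22.1 to 64.8 units, near or below the median of the arrays (53.7 to 70.9), and gave no call either.

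The upstream letters of the 3 members called as higher with DNA in wild type that have a RefSeq window are shown next. All are on the minus strand, and the call of Jun was near the threshold and not seen in its second probe set. They lie at chr1:191183334-191183583 (Atf3), chr4:95052223-95052472 (Jun) and chr8:84978749-84978998 (Junb), and motif matches are in capitals.
Atf3: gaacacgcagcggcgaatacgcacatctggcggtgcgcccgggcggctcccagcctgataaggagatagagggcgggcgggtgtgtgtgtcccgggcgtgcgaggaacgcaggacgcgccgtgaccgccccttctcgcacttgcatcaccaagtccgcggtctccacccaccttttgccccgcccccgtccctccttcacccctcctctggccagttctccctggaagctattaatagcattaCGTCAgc
Jun: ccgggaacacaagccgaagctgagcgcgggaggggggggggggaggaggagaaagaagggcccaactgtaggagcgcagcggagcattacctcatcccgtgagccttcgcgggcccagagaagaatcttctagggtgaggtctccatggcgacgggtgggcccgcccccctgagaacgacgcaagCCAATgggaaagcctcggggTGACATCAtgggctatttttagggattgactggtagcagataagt
Junb: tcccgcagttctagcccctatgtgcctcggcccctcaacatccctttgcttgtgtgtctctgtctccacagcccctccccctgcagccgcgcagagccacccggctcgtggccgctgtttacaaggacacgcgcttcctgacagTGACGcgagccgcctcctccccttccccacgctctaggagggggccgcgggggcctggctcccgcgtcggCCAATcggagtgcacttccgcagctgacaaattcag
Atf3 held TGACG, read on the other strand, at -7 to -3. Jun held CCAAT at -65 to -61 and TGACATCA, a variant of the CRE, at -45 to -38. Junb held TGACG at -106 to -102 and CCAAT at -36 to -32. After the start, beyond the letters shown, Atf3 held CCAAT, read on the other strand, at 6 to 10, and Junb held TATAAA at 1 to 6. TATAAA occurred in 13.6% of the windows. CCAAT occurred in 37.4% of the windows and TGACATCA, searched after the windows had been read, in 3.62%.

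Fos was the member that set the stimulated knockout apart. It read 2592, 2824 and 2230 units in WT media, 2025, 2671 and 2149 in WT tumor DNA, and 6087, 4461 and 5979 in STING tumor DNA. The wild-type groups overlapped and all 3 knockout arrays lay above all 6 wild-type arrays. With DNA in wild type Fos differed by -0.16 (95% interval -0.55 to 0.22, limma adjusted p = 0.51), and by 0.27 when centred on the median of the genes tested (adjusted p = 0.24). In the knockout under DNA it was higher by 1.26 ± 0.17 (SE, n = 3 per group, limma adjusted p = 0.00078), or 2.40-fold, at 1.58, 0.74 and 1.47 in numbers 1 to 3. This call held in 11 other settings and 12 with arrays left out, the adjusted p reaching 0.036.

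Against wild-type cells in media, Fos in the stimulated knockout was higher by 1.10 ± 0.17 (SE, n = 3 per group, limma adjusted p = 0.028), number 39 by p of 12586 genes and 1 of the 54 genes called. By number the differences were 1.23, 0.66 and 1.42. The call ended with median centring on all probe sets (0.064), without the variance trend (0.065) and with only the groups compared in the fit (0.065). It also ended without WT media array 1 (0.094), 2 (0.065) or 3 (0.13), WT tumor DNA array 3 (0.062) or STING tumor DNA array 3 (0.18), and without the arrays numbered 1 (0.11), 2 (0.098) or 3 (0.94). Knockout cells in media were not analysed here, so a level of Fos set by the genotype and one set by the DNA cannot be told apart.

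The Fos upstream letters, on the plus strand at chr12:85473640-85473889, are shown because Fos alone differed from both wild-type groups.
Fos: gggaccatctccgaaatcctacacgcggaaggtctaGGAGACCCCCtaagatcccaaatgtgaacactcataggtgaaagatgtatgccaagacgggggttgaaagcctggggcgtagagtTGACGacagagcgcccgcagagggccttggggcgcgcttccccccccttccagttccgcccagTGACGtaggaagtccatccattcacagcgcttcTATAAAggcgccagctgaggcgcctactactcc
The capitals mark a kappaB match on the other strand at -214 to -205, TGACG at -129 to -125 and at -66 to -62, and TATAAA at -33 to -28. The kappaB motif occurred in 8.46% of all windows and TATAAA in 13.6%.

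Fosl2, which like Fos pairs with JUN proteins but lacks its strong activation region, read 2246, 4086 and 4330 units in WT media, 2101, 2184 and 3664 in WT tumor DNA, and 3117, 4604 and 5110 in STING tumor DNA. The groups overlapped, and array 1 was the lowest in each. Its differences were -0.41 (95% interval -1.10 to 0.27) with DNA in wild type and 0.70 ± 0.31 in the knockout under DNA (limma adjusted p = 0.11). With the replicate number as a block, the second had an adjusted p of 0.0065, the knockout being higher in 3 of 3 numbers, by 0.57, 1.07 and 0.48. Without WT tumor DNA array 3 it was 0.96 (adjusted p = 0.048). The other Fosl2 probe set, at 86.9 to 256 units, differed by 0.20 and -0.05 in these comparisons, with no call.

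Fosb, induced in many cells together with Fos, was the dimmest member, with 35.9, 37.0 and 27.6 units in WT media, 42.3, 31.9 and 29.8 in WT tumor DNA, and 66.2, 45.7 and 33.6 in STING tumor DNA. These values lie between percentiles 32.6 and 53.6 of their arrays, and the groups overlap. The differences were 0.03 with DNA in wild type, which was -0.04 with quantile normalization, and 0.33 in the knockout under DNA (limma adjusted p = 0.95 and 0.44).

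**Figure D3:**
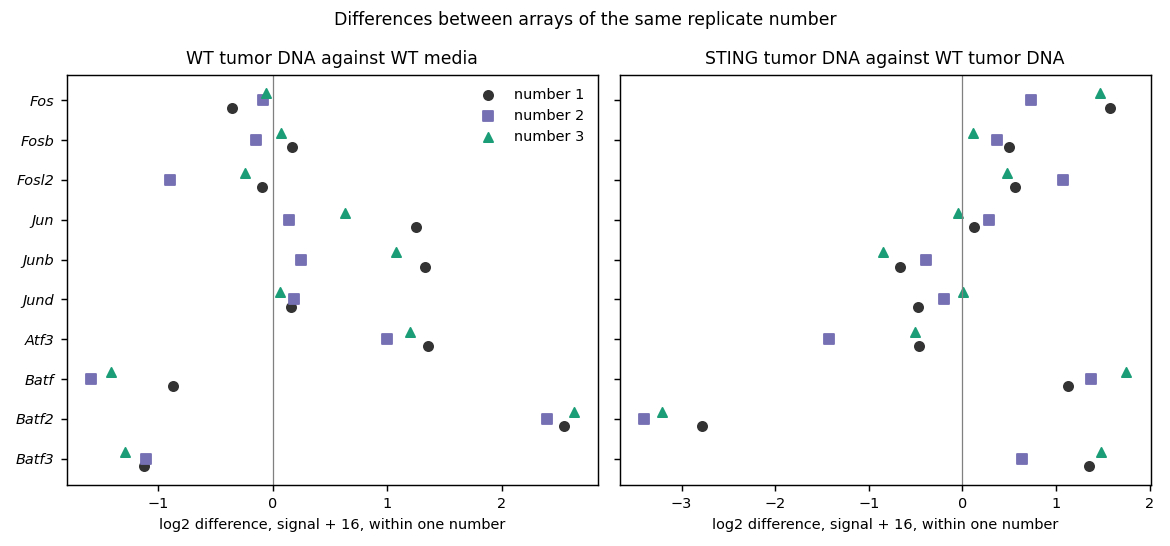
Log2 difference (signal + 16, x axis) between arrays of the same replicate number, for DNA in wild type (left) and knockout under DNA (right), where circles, squares and triangles are numbers 1, 2 and 3. Fos, Fosl2, Junb, Atf3, Batf, Batf2 and Batf3 each have 1 sign in 3 of 3 numbers within a panel, in both panels, and Fos lies at 0.74 to 1.58 on the right and -0.35 to -0.05 on the left.

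Some genes of this family are close neighbours in the mouse genome. On chromosome 1, Batf3 and Atf3 have 1 protein-coding gene between them, Fam71a, in the RefSeq annotation, and with DNA in wild type Atf3 rose while Batf3 fell. On chromosome 12, Fos and Batf have 1 gene between them, Jdp2, which encodes a related repressor of AP-1. Jdp2 read 889, 910 and 1100 units in WT media, 868, 820 and 1122 in WT tumor DNA and 532, 1348 and 1150 in STING tumor DNA, with differences of -0.05 and 0.02 in the first and second comparisons (limma adjusted p = 0.92 and 0.97). It was named after its values were seen.

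Across the 9 members with a window, no window held TGANTCA (the AP-1 site), TGACGTCA (the full CRE) or the CArG box to which serum response factor binds, which occurred in 7.81%, 1.79% and 1.63% of all windows. On both strands, TGACG, searched after the windows had been read, was found in 5 of 9, against 20.8% of all windows. The kappaB motif was found in 3 of 9, those of Fos, Fosb and Fosl2, against 8.46%. The core of the interferon-stimulated response element (GAAA, any pair of bases, GAAA) was found in 1 of 9 (Fosl2) against 3.44% of all windows. In Fosl2 the pair of kappaB matches overlap each other, and TGACG is contained in TGACGTCA. These are matches of letters in short windows, not measured binding. Letters further upstream were not searched, so the absence of a motif, the CArG box of Fos included, holds for these windows only. TGACATCA, found in Jun, matches neither TGANTCA nor TGACGTCA and was counted separately. Binding of AP-1 to such other letters was not tested.

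**Figure D4:**
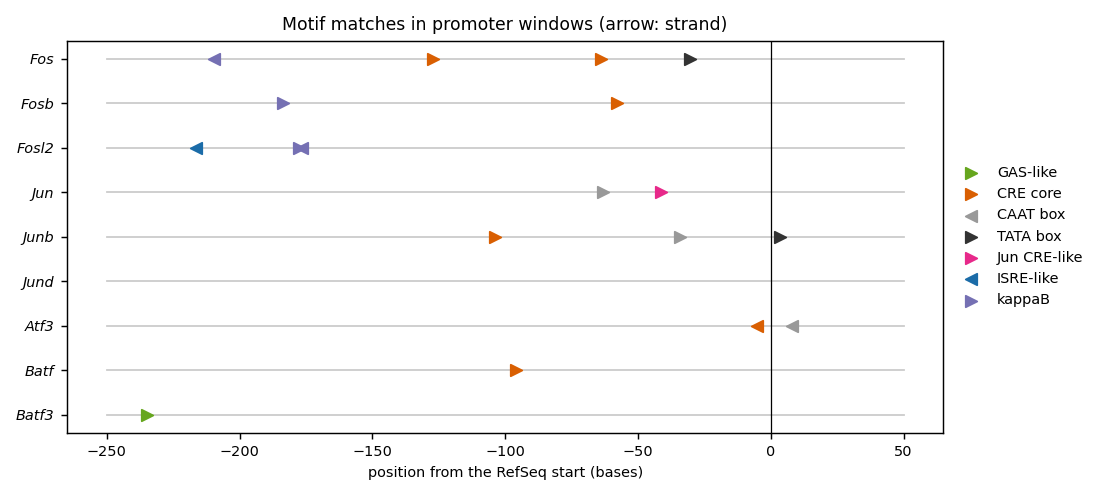
Positions of motif matches in the promoter windows of 9 members (x axis, bases from the RefSeq start, 250 before to 50 after), with arrows for the strand. TGACG (CRE core), searched after the windows had been read, was found in 5 of them, against 20.8% of all windows. Jund had no match, and kappaB matches, found in 8.46% of all windows, lie at -214 to -172 in the 3 FOS genes.

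The surroundings of the family were read from gene lists, which were chosen with earlier results of these data known. Of 29 other leucine zipper factors tested, 5 rose and 5 fell with DNA in wild type, where 9.94% of all genes rose and 23.6% fell, with a median of -0.06 against -0.20 for all genes. The clearest were Mafk, a small MAF protein without an activation region, up by 1.499 ± 0.16, Creb5, up by 1.03 ± 0.15, and Cebpa, a factor of myeloid differentiation, down at -2.14 ± 0.29 (SE, n = 3 per group, limma adjusted p = 0.00036, 0.0011 and 0.00088). Cebpa read 682 to 1299 units in WT media, 170 to 196 in WT tumor DNA and 666 to 1298 in STING tumor DNA. In the knockout under DNA 5 were higher and 3 lower (21.8% and 9.73% of all genes), with Cebpa at 2.18, Mafk at -1.24 and Creb5 at -1.07. The other FOS gene, Fosl1, named after its values were seen, read 31.3 to 258 units in WT media, 137 to 324 in WT tumor DNA and 153 to 491 in STING tumor DNA, with no call.

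Of 26 MAP kinases and regulators that act upstream of AP-1, 5 rose and 7 fell with DNA in wild type (9.94% and 23.6% of all genes), and the median of -0.20 was that of all genes. Map2k1, the kinase MEK1 that activates ERK, rose by 1.25 ± 0.16, while Map3k3 fell by 1.27 ± 0.15 and Mapk14, which encodes p38 alpha, fell by 0.95 ± 0.18 (SE, n = 3 per group, limma adjusted p = 0.00071, 0.00057 and 0.0036). Map2k1 stood at 10376 to 11474 units in WT tumor DNA and at 3894 to 5988 on the other 6 arrays. Under DNA, 6 were higher and 4 lower in the knockout (21.8% and 9.73% of all genes), led by Mapkapk3, a kinase that p38 activates, at 1.72 ± 0.22 (limma adjusted p = 0.00052), with Map3k3 at 1.17 and Map2k1 at -1.17. With DNA in wild type Mapkapk3 differed by -0.73 ± 0.22 (limma adjusted p = 0.027). In stimulated knockout against media it differed by 0.99 ± 0.22 (limma adjusted p = 0.12). All these values are transcript levels, and kinase activity was not measured.

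Of 24 genes known as AP-1 targets, 12 rose and 1 fell with DNA in wild type, where 9.94% of all genes rose and 23.6% fell. The list median was 1.09, against -0.20 for all genes. Mmp13, a collagenase, rose by 1.55 ± 0.23 (SE, n = 3 per group, limma adjusted p = 0.0014), from 5435, 9148 and 10411 units in WT media to 24165, 23723 and 22778, and stood at 7510, 9011 and 11419 in STING tumor DNA. Under DNA, 7 were lower and 0 higher in the knockout (9.73% and 21.8% of all genes), with a median of -0.50 against 0.20 for all genes, among them Mmp13 at -1.36 ± 0.23 and Ptgs2, the inducible cyclooxygenase, at -2.62 ± 0.76 (limma adjusted p = 0.0021 and 0.025). Ptgs2 read 12454, 910 and 4564 units in WT tumor DNA and 144 to 733 on the other arrays. Several of these genes, such as Il6 (3.68 with DNA, -3.07 in the knockout) and Tnf (3.20 and -1.99), are also targets of NF-kappaB. In stimulated knockout against media no gene of this list was called, where 0.429% of all genes were. The list median was 0.49 there, against -0.01 for all genes.

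Of 18 listed partners of BATF proteins and genes tied to BATF3-dependent dendritic cells, 15 were tested. Xcr1, Clec9a and Flt3 were not among the genes tested, and Wdfy4, Zbtb46, Itgae, Btla and Cd8a were tested with no call. These genes are named outside the rule. Of the 15 tested, 4 rose and 1 fell with DNA in wild type (9.94% and 23.6% of all genes, list median 0.04). In the knockout under DNA 3 were higher and 2 lower (21.8% and 9.73% of all genes, list median -0.21). Tlr3, the sensor of double-stranded RNA, rose by 3.65 ± 0.41, Irf1 by 1.97 ± 0.52 and the endocytic receptor Ly75 by 1.74 ± 0.39 (SE, n = 3 per group, limma adjusted p = 0.00044, 0.017 and 0.0078). The gene that fell was Cadm1, an adhesion molecule, at -1.08 ± 0.34 (limma adjusted p = 0.033). The lower genes in the knockout under DNA were Tlr3, at -4.27 ± 0.41, and Irf1, at -2.48 ± 0.52 (limma adjusted p = 0.00016 and 0.0061), and Cadm1 was higher by 1.43 ± 0.34 (limma adjusted p = 0.010). The partner factors Irf4 and Irf8, named after their values were seen, differed by -0.19 and -0.02 with DNA in wild type, with no call, and Irf4 was higher by 0.88 ± 0.26 in the knockout under DNA (limma adjusted p = 0.027). In the reference list of interferon signalling, 6 of 7 rose with DNA (9.94% of all genes) and 7 of 7 were lower in the knockout (9.73%). The list medians were 2.70 and -3.86, against -0.20 and 0.20 for all genes. Ifnb1, Stat2 and Irf7 had the smallest adjusted p, at 7.19, 2.18 and 3.08 with DNA and -7.29, -2.88 and -4.30 in the knockout. The splits of 3 lists depend on the scaling, given here as higher and lower counts when arrays are centred on the median of the genes tested, which moved the median of all genes from -0.20 to 0.24 with DNA and from 0.20 to -0.20 in the knockout under DNA. All 12586 genes then gave 2759 and 1080 with DNA and 1092 and 2492 in the knockout. The 29 other leucine zipper factors gave 8 and 2 with DNA and 2 and 6 in the knockout. The 26 MAP kinases gave 7 and 2 and then 3 and 7, and the 15 BATF partners 4 and 0 and then 1 and 4. The 24 AP-1 targets gave 19 and 0 with DNA and 0 and 11 in the knockout.

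**Figure D5:**
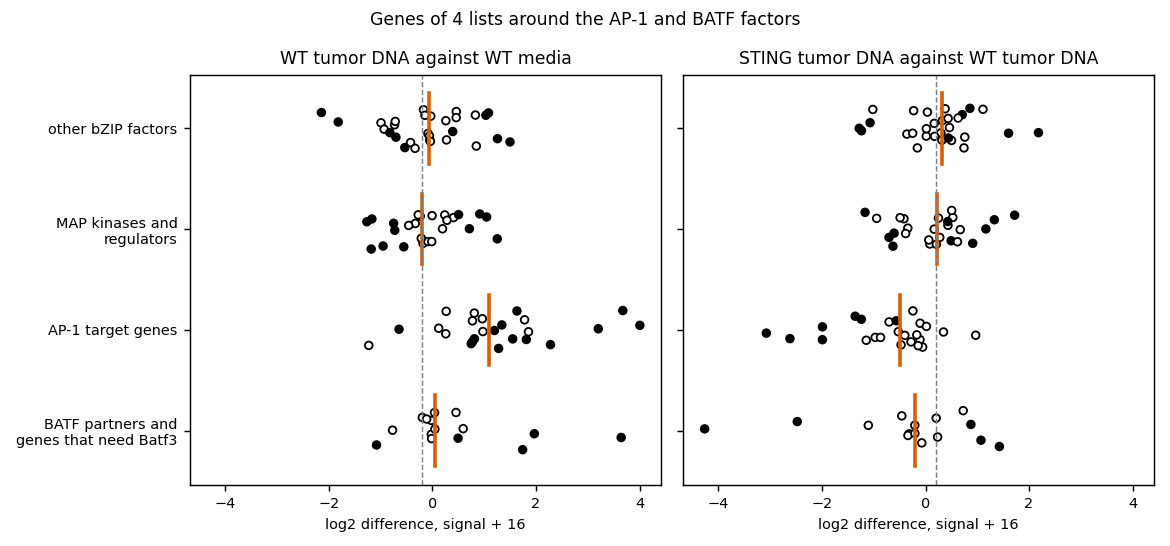
Log2 difference (signal + 16, x axis) of the tested genes of the lists for DNA in wild type (left) and knockout under DNA (right), where filled points passed the adjusted threshold, orange lines are list medians and the dashed line is the median of all genes (-0.20 and 0.20). The AP-1 target genes have medians of 1.09 and -0.50, and the medians of other leucine zipper factors and MAP kinases lie within -0.20 to 0.32.

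As a description of pattern, the 3 genes with the highest Pearson correlation of log2 values over the 9 arrays were listed for each member among 12585 other genes. The 9 arrays share their groups and replicate numbers between genes, so these values are no measure of a link between genes. For Jund, Fosl2 and Fosb, the groups overlap in each comparison. For Batf2 they were Fam53c (0.998), Oasl1 (0.996) and Mlkl (0.994), for Batf they were Ube2g2 (0.989), Akt1s1 (0.982) and AI413582 (0.982), and for Batf3 Srpk1 (0.985), Rad50 (0.984) and Wdr18 (0.981). For Fos they were Cd300ld (0.978), Cbfa2t3 (0.976) and Nucb2 (0.956). For Atf3 the values were 0.955 to 0.964 (Hbb-bh1, Metrnl and Pomp), for Junb 0.954 to 0.971 (Lims1, Hs3st1 and Pmpcb) and for Jun 0.919 to 0.947 (Zc3h12a, Phldb1 and Ifrd1). Jund was closest to Ubxn11 (0.992), Fosl2 to Timm17a (0.982) and Fosb to Nfrkb (0.934).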

How the data were processed

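Total RNA of each sample was hybridised to 1 Affymetrix mouse array. The authors deposited linear signal intensities, which the submitters' processing notes credit to MAS5. No version of it is given in the sources used here. Leaving out the lowest and highest 2 percent of values, each array had a mean of 499.8, a common scale. No detection calls were used.

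Signals were analysed as log2(signal + 16). Probe sets above the 40th percentile were kept (27022 of 45037), and the one with the highest mean stood for each of 12586 genes. All 9 arrays were fitted with limma 3.58.1 in R 4.3.3 (lmFit, eBayes with an intensity trend). P-values are 2-sided and adjusted by Benjamini-Hochberg over all genes, or, for single probe sets, over all 27022. The model was also run on simulated data with independent values and few changed genes. That setting differs from these data, so the run does not test the calls given here. Named are all members, the 3 called genes with the smallest adjusted p of each list and comparison, Sting1, and the 3 genes most like each member, with others said to be outside the rule. Members and lists were chosen with earlier results of these data known. In each group the titles number the samples II and III only, and the unnumbered one was taken as number 1. The main fit did not pair the samples by number, and its standard errors and calls leave such a pairing out. No shared batch was stated. In the data, residuals of same-numbered arrays correlated at 0.17 to 0.49 over 9 pairs, and others at -0.42 to 0.14. Calls that a fit blocked on the number changes are therefore given. Alternatives covered the offset, scaling, filter, variance trend, probe set rule, block, arrays fitted and arrays left out. Promoter windows come from RefSeq (GRCm38.p6), matched by symbol for 9 of 10 members.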

Additional observations from a re-analysis of the deposited data

How the results depend on the processing

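Each of the 30 differences of the members was recomputed under up to 11 other settings and up to 12 settings that leave arrays out. For 21 of the 30 no call changed, among them Batf2, Batf and Fos in the knockout under DNA and Batf2 and Batf with DNA in wild type. The others are given with their results. The count of members called was 6, 5 and 1 for DNA in wild type, knockout under DNA and stimulated knockout against media, and leaving arrays out gave 2 to 6, 3 to 6 and 0 to 1. The last count was 0 with median centring on all probe sets, without the variance trend and with only the groups compared. Over all genes 4224, 3970 and 54 were called, and leaving arrays out gave 1489 to 4209, 1368 to 3930 and 4 to 129. The third was 176 with the replicate block and 30 with only the groups compared. The block, which reflects the pairing by number, changed no other call of a member than those of Fosl2 and Junb in the knockout under DNA. Fosb did not pass a filter at the 60th percentile, nor with certain arrays left out, and has no value there. The cause of these shifts was not tested. Fits that leave arrays out change the number of samples and the arrays used together, and these cannot be told apart.

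Centring each array on the median of the genes tested, chosen after seeing the data, moved the differences with DNA by 0.43 and those in the knockout under DNA by -0.40 (log2). The split of called genes then went from 1251 higher and 2973 lower to 2759 and 1080 with DNA, and from 2746 and 1224 to 1092 and 2492 in the knockout under DNA. The signs of Fos and Fosl2 with DNA (0.27 and 0.022), of Fosb and Jun in the knockout under DNA (-0.072 and -0.28) and of Batf3 against media (0.021) turned. With quantile normalization those of Fosb (-0.038) and Jund (-0.090) with DNA and of Batf3 against media (0.0074) turned. None of these was called in any setting. Leaving arrays out gave ranges across 0 for Fosb with DNA (-0.075 to 0.12), Jund with DNA (-0.0052 to 0.27), Jun (-0.061 to 0.24) and Jund (-0.41 to 0.036) in the knockout under DNA, and, against media, Fosl2 (-0.0070 to 0.50), Junb (-0.015 to 0.57), Jund (-0.28 to 0.17) and Batf3 (-0.16 to 0.21). In the last 150 bases of the windows, the kappaB, interferon-response and TTCNNNGAA matches were absent from all members. There TGACG remained in 4 of 9, against 13.9% of all windows. Signals near the median of an array, as in Fosb and the second Jund probe set, limit what can be seen there.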
